A study of Mus musculus with 8 samples.

Results

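Mitochondrial fatty acid oxidation and the use of ketone bodies were followed through 37 genes, listed by symbol and each matched to 1 of the 42256 gene identifiers counted in mouse kidney RNA. Of these, 36 passed the filter on low counts and were tested among 15852 genes. Fabp1 did not pass it. The kidneys came from adult male mice (strain background 129S1/Sv x C57BL/6, mixed), 4 labelled CDH11+/+ and 4 labelled CDH11-/-, where CDH11 is cadherin-11, a cell adhesion protein. All 8 mice had received aristolochic acid, a plant toxin that injures the proximal tubule, at 3 mg/kg on each of 5 days, and the kidneys were taken 2 weeks after the last dose. Labels and design text give this agent, whereas the series is titled for Unx/AngII injury; the labels are used here. No uninjured kidney was analysed here, so the comparison asks how the genotypes differ within injured kidneys.

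Fatty acids are the main fuel of the proximal tubule. A fatty acid that enters the cell is bound by a carrier protein, joined to coenzyme A by an acyl-CoA synthetase, passed into the mitochondrion by the carnitine shuttle, and shortened there by repeated cycles of dehydrogenation, hydration, oxidation and thiolysis. Electrons leave through the electron transfer flavoprotein, and the acetyl-CoA made enters the citric acid cycle. Ketone bodies made in the liver are burned in the kidney by an adjoining set of enzymes. Many of these genes are textbook targets of the nuclear receptor PPAR alpha.

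Across the 8 kidneys the genes were mostly somewhat lower under the CDH11-/- label, but none was separated from the spread between mice. Of 36 tested genes, 34 had a negative log2 fold change (94.4%, against 52.4% of all tested genes), and the median was −0.23, which is a fold of 0.853, against −0.01 over all tested genes. The median was −0.15 without CDH11+/+ replicate 3 and −0.13 with 1 surrogate variable. With the edgeR quasi-likelihood test and Benjamini-Hochberg adjustment over all genes, 0 of the 36 passed the threshold of 0.05 in either direction, and adjusted p ran from 0.134 to 0.964. Over all genes 0.725% were called (115 of 15852), 0.366% as lower. At an unadjusted p under 0.05 there were 8 of the 36 genes, or 22.2%, against 14.4% of all genes, and all 8 were lower (7.63% of all genes). DESeq2 also called 0 of the 36 (2.79% of its genes), as did limma on the authors' normalized values (0.341%) and edgeR with the authors' factors as offsets (0.41%). None of the 36 had groups that did not overlap, compared with 7.33% of all tested genes.

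**Figure D1:**
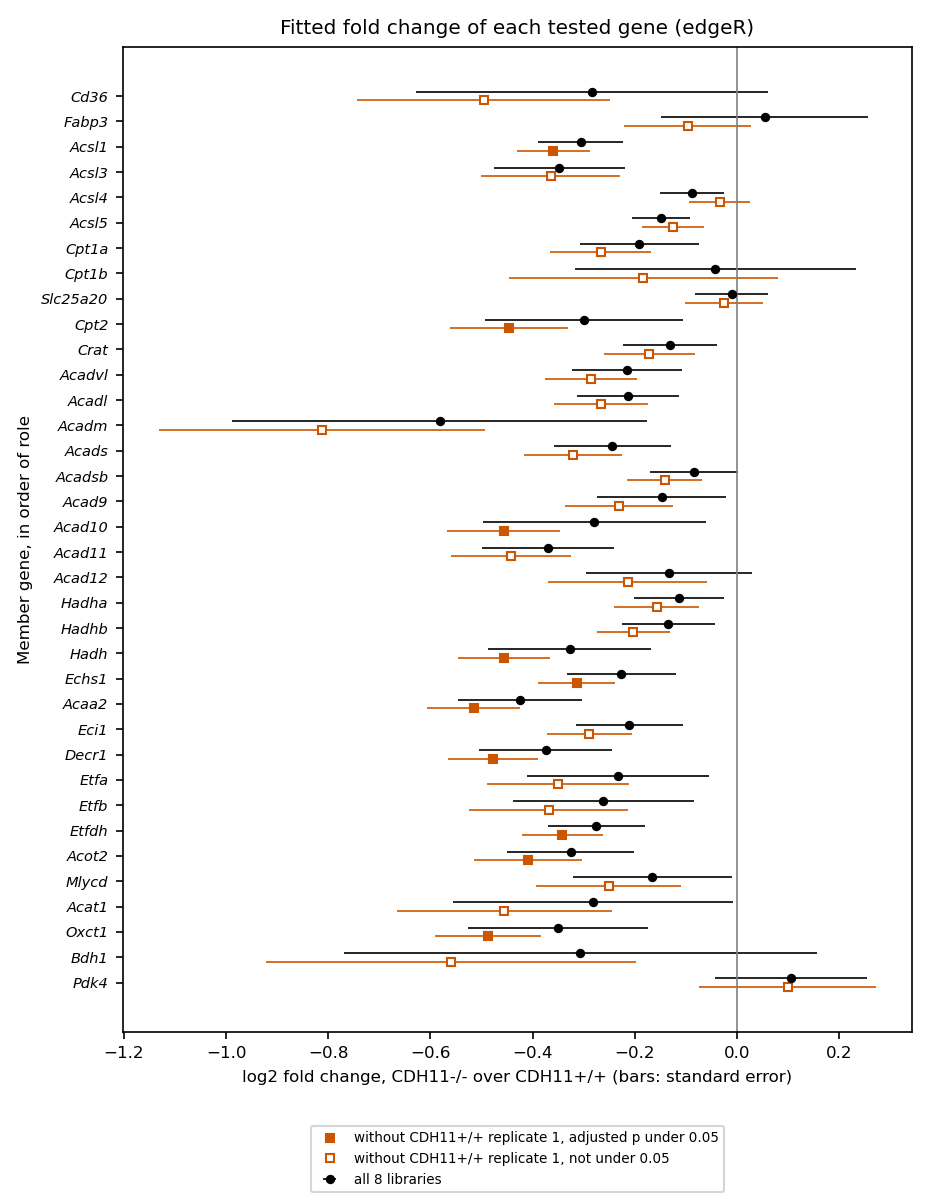
Fitted log2 fold change, CDH11-/- over CDH11+/+, of each of the 36 tested genes in order of role; black points with standard error bars use all 8 libraries, squares leave out CDH11+/+ replicate 1 and are filled where the adjusted p is under 0.05. With all libraries 34 points lie left of 0 and 0 are called; without that replicate 35 squares lie left of 0 and 10 are filled. That replicate was the lowest of its group for 31 of the 36 genes.

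The count rested on 1 library. CDH11+/+ replicate 1 was the lowest of its group for 31 of the 36 genes and the highest for 1, and it stood apart from the other 7 libraries on the second principal component of all genes, which held 22.6% of the variance. Without it, edgeR called 10 of 36 genes (27.8%), all lower, against 3.12% of all genes called as lower, and the median log2 fold change was −0.32. In that comparison of 3 with 4 libraries, 16 of the 36 genes (44.4%) had CDH11+/+ replicates 2 to 4 above every CDH11-/- library, against 11.0% of all genes. Leaving out any other library called 0 of the 36. Since replicate 1 was low for these same genes, leaving it out lowers their fold changes. The shares without it are therefore no test of the list. Nothing in the labels sets this mouse apart, so values with all 8 libraries come first and those without it follow. With all 8 libraries, limma-voom with quality weights called 3 of the 36 lower (Acsl1, Acaa2 and Decr1; 2.16% of all genes), and edgeR with 1 surrogate variable called these and Oxct1, 4 in all (2.52%).

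A few facts of the whole series bear on every value. Libraries held 10675309 to 18539479 counts, 10675309 to 13885009 under CDH11+/+ and 12966177 to 18539479 under CDH11-/- (two-sided exact permutation test, p = 0.0857, the smallest possible being 0.0286). Levels are given in CPM on library sizes scaled by TMM, so this difference is divided out. The 37 genes together took 0.303% to 0.472% of a library's counts, and each tested gene had at least 135 counts in every library. The part of counting error in the spread of each gene was not worked out. Cdh11 itself read 75.6, 58.0, 61.7 and 59.0 CPM in CDH11+/+ replicates 1 to 4 and 89.9, 91.3, 112.5 and 117.2 CPM in CDH11-/- replicates 1 to 4, a log2 fold change of 0.69 ± 0.11 (SE; adjusted p by edgeR = 0.0249). The targeted gene was therefore not lower in the libraries labelled CDH11-/-, and the labels do not say which part of it was deleted, so every direction below is a direction between labels.

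PPAR alpha binds DNA with its partner RXR at a direct repeat of the hexamer AGGTCA with 1 base between the copies. RefSeq windows of 300 bases (GRCm38.p6, 250 before to 50 after a gene's start) were found for 31 of the 37 genes, 33 windows in all, and searched on both strands. The exact repeat was in 0 of the 33 windows and in 13 of 32851 windows of all genes (0.0396%). The looser repeat, AGGNCA on both sides of the 1 base, was in 1 of the 33, that of Fabp1 (3.03%), and in 0.381% of all windows. The single hexamer AGGTCA, which the exact repeat also contains, was in 6 of 33 windows (18.2%; Acadm, Acadvl, Cd36, Cpt1a, Echs1 and Fabp1) against 16.3% of all windows. A match describes letters only, and no binding was measured. The 250 bases before the start are printed for Fabp1, which held the looser repeat, and for Cpt1a, Acadm and Acadvl, chosen after the matches were seen because they encode the entry step of the carnitine shuttle and dehydrogenases of medium and very long chains. Each is on the strand of its gene, with the match in capitals; TGACCT is AGGTCA read on the other strand. The windows are chr6:71199629-71199878 (plus strand) for Fabp1, with the repeat beginning 67 bases before the start; chr19:3323051-3323300 (plus) for Cpt1a, 94 bases before it; chr3:153944644-153944893 (minus) for Acadm, 249 bases before it; and chr11:70015429-70015678 (minus) for Acadvl, 87 bases before it.
Fabp1: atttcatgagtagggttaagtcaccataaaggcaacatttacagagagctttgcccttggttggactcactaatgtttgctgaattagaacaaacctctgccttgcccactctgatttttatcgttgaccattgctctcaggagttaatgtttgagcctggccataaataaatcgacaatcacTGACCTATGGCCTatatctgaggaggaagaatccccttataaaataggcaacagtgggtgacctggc
Cpt1a: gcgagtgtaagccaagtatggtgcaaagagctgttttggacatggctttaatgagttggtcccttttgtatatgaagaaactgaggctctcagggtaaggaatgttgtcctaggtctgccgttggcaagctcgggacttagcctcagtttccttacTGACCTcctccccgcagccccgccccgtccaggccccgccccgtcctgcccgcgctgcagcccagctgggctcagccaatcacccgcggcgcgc
Acadm: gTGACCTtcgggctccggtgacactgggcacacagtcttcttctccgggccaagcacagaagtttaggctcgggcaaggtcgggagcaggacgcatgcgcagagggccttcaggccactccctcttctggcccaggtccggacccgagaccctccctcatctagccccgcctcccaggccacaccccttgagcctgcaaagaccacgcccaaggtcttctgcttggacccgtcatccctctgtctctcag
Acadvl: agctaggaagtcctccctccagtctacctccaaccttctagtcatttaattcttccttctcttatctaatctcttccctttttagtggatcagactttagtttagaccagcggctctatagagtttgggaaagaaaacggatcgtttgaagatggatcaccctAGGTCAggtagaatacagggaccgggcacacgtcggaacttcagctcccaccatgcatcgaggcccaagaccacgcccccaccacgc

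Uptake and binding was the least uniform step. Cd36, a membrane fatty acid translocase, read 35.3, 79.0, 109 and 64.3 CPM in CDH11+/+ replicates 1 to 4 and 51.4, 80.6, 56.1 and 48.2 CPM in CDH11-/- replicates 1 to 4. The groups overlapped almost wholly, and the log2 fold change was −0.28 ± 0.34 (SE; adjusted p by edgeR = 0.761). It ran from −0.50 without CDH11+/+ replicate 1 to −0.0149 without CDH11+/+ replicate 3, and was −0.00603 with 1 surrogate variable. Fabp3, the heart-type fatty acid carrier, read 34.5, 66.2, 60.0 and 55.6 CPM against 60.0, 65.0, 56.4 and 43.4 CPM in the same order. It was 1 of the 2 tested genes above 0, at 0.05 ± 0.20 (SE; adjusted p by edgeR = 0.933), and its sign turned without CDH11+/+ replicate 1 (−0.10). Fabp1 (chr6:71199827-71205023), the liver-type carrier, was nearly absent. It had 13, 6, 5 and 5 counts in the CDH11+/+ libraries and 2, 123, 16 and 0 in the CDH11-/- libraries, which is 1.20, 0.456, 0.396 and 0.386 CPM against 0.134, 7.95, 0.845 and 0 CPM. The count of 0 in CDH11-/- replicate 4 allows up to 0.227 CPM, a limit for counting error only. The single high value, in CDH11-/- replicate 2, was not shared by the other 3 libraries of that label. The 7 fits whose filter kept Fabp1 put it at 1.76 to 2.31 on the log2 scale, with adjusted p of 0.521 to 0.832 (edgeR or DESeq2).

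The acyl-CoA synthetases, which activate fatty acids, varied little in their summed level between libraries of a label. All 4 of these genes had negative fold changes, and 3 of the 8 genes with an unadjusted p under 0.05 were among them. Acsl1 (chr8:46471037-46536051), a long-chain synthetase tied to oxidation, read 71.8, 93.0, 83.9 and 84.4 CPM in the CDH11+/+ libraries and 68.8, 73.4, 62.8 and 64.8 CPM in the CDH11-/- libraries, means of 83.3 ± 8.72 and 67.4 ± 4.69 (SD, n = 4 each). Only CDH11+/+ replicate 1 lay within the range of the other group. The log2 fold change was −0.31 ± 0.08 (SE), with the smallest adjusted p of the 36 genes, 0.134 in edgeR and 0.0169 to 0.353 over the 18 other fits. Without CDH11+/+ replicate 1 it was −0.36 ± 0.07 (edgeR adjusted p = 0.0169).

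Acsl5, a synthetase of mitochondria and endoplasmic reticulum and the highest of the 4 per length, read 183, 179, 186 and 165 CPM against 166, 162, 158 and 157 CPM. Its lowest CDH11+/+ library lay just below its highest CDH11-/- library, and the log2 fold change was −0.15 ± 0.06 (SE; adjusted p by edgeR = 0.269). Acsl3, which acts at lipid droplets, read 19.7, 25.8, 18.4 and 19.5 CPM against 17.6, 14.3, 15.2 and 18.6 CPM. Its log2 fold change of −0.35 ± 0.13 (SE; adjusted p by edgeR = 0.248) included CDH11+/+ replicate 2 as the highest of the 8 libraries, and was −0.23 without it. Acsl4, which prefers arachidonic acid, was among the most even of all the genes, with a highest library 1.19 times its lowest and a log2 fold change of −0.09 ± 0.06 (SE; adjusted p by edgeR = 0.563). Summed over the 4 synthetases the level was 358 to 396 CPM under CDH11+/+ and 330.0 to 344 CPM under CDH11-/-. The sums did not overlap, although each gene did. Acsl5 was the largest part of the sum, with means of 178 CPM under CDH11+/+ and 161 CPM under CDH11-/-. The sums of every other role overlapped, as from hydration to thiolysis, at 651 to 908 CPM under CDH11+/+ and 615 to 744 CPM under CDH11-/-.

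The carnitine shuttle carries acyl groups across the mitochondrial membranes. Its 5 genes had a median of −0.13 on the log2 scale, and 0 had an unadjusted p under 0.05. Cpt1a (chr19:3322334-3385733), the rate-limiting acyltransferase of the outer membrane, read 206, 267, 258 and 281 CPM in the CDH11+/+ libraries and 239, 248, 220.2 and 179.5 CPM in the CDH11-/- libraries. CDH11+/+ replicate 1 lay among the CDH11-/- values and the other 3 lay above them all. Its estimate was −0.19 ± 0.12 (SE; adjusted p by edgeR = 0.491), and −0.0915 without CDH11-/- replicate 4. Cpt1b, the muscle isoform, was much lower per length (5.58 against 31.1 RPKM for Cpt1a as means of the 8 libraries) and differed by −0.04 ± 0.28 (SE; adjusted p by edgeR = 0.963).

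Slc25a20, the carnitine-acylcarnitine translocase of the inner membrane, was the most even gene of the 36. It read 37.7, 41.9 and 42.9 CPM in CDH11+/+ replicates 1, 3 and 4, slightly less than the first of these in replicate 2, and 40.2, 41.8, 38.0 and 38.6 CPM in the CDH11-/- libraries, a highest library 1.16 times the lowest, with a log2 fold change of −0.01 ± 0.07 (SE; adjusted p by edgeR = 0.964). Cpt2, the acyltransferase of the inner membrane that follows it, spread more, at 35.9, 60.2, 64.3 and 62.0 CPM against 47.2, 53.2, 45.3 and 35.1 CPM. CDH11+/+ replicate 1 lay far below the other 3 of its group. The log2 fold change of Cpt2 was −0.30 ± 0.19 (SE; adjusted p by edgeR = 0.532) with that library and −0.45 ± 0.11 (SE; adjusted p by edgeR = 0.0479) without it. With each library left out in turn, Cpt2 ran from −0.45 to −0.19. Crat, which exchanges acetyl groups with carnitine, differed by −0.13 ± 0.09 (SE; adjusted p by edgeR = 0.561).

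**Figure D2:**
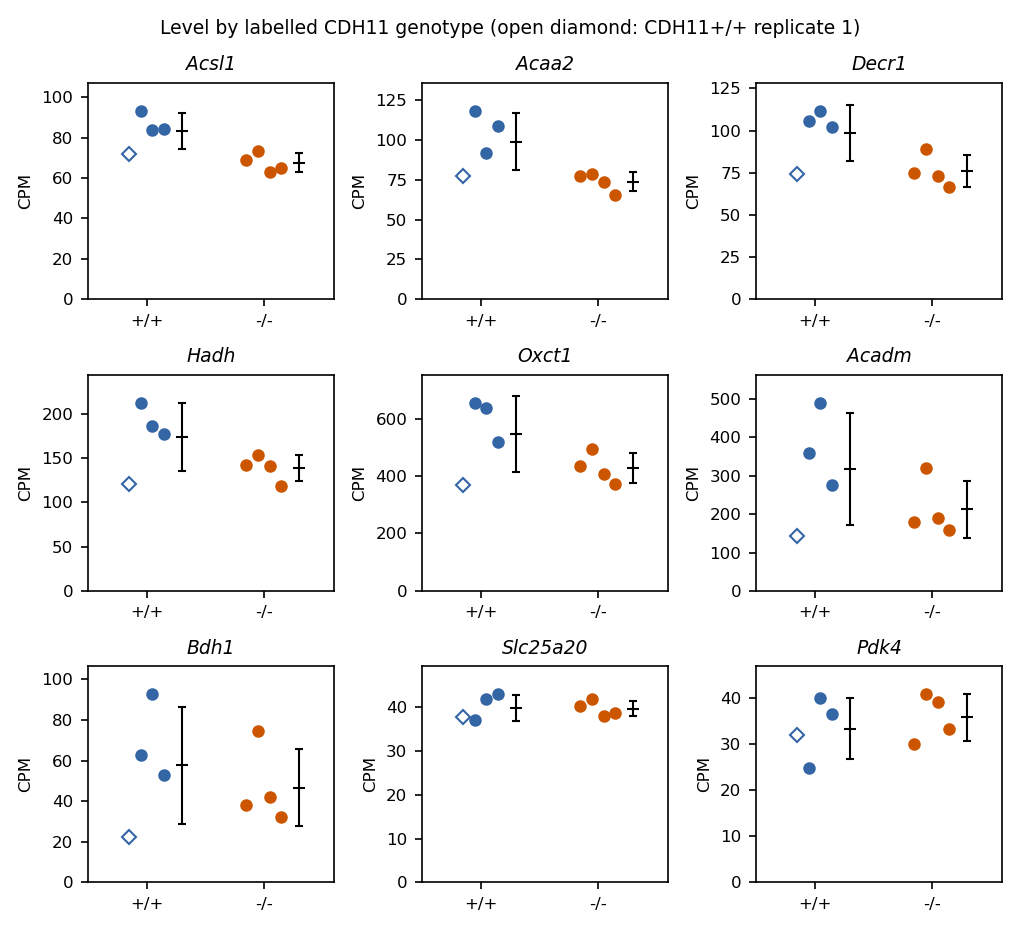
Level in CPM of 9 genes in each library by labelled genotype (n = 4 each, points), with mean and SD in black; the open diamond is CDH11+/+ replicate 1. For Acsl1, Acaa2, Decr1, Hadh and Oxct1 the diamond lies within or below the CDH11-/- points and the other 3 CDH11+/+ points lie above them; Acadm and Bdh1 spread widely in both groups, and Slc25a20 and Pdk4 overlap throughout.

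The acyl-CoA dehydrogenases take the first step of each oxidation cycle and differ in the chain length they accept. All 9 had negative fold changes, with a median of −0.21, and 1 had an unadjusted p under 0.05. That gene was Acad11 (chr9:104063377-104127725), whose enzyme acts on long chains. It read 73.2, 111, 80.5 and 93.0 CPM against 75.4, 72.1, 71.3 and 57.7 CPM, a log2 fold change of −0.37 ± 0.13 (SE; adjusted p by edgeR = 0.238). Acadm (chr3:153922357-153944632), the medium-chain enzyme, had the largest fold change of the 36 and also one of the widest spreads. It read 144, 359.7, 491 and 276 CPM in the CDH11+/+ libraries and 180.1, 320.4, 189 and 159 CPM in the CDH11-/- libraries, and its highest library was 3.40 times its lowest. Both groups ran through the same range at their lower end, and a log2 fold change of −0.58 ± 0.41 (SE) was not separated from 0 (edgeR adjusted p = 0.574) and was −0.29 without CDH11+/+ replicate 3.

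Acadl, the long-chain enzyme and the highest of the 9 per length, read 163, 191, 214 and 185 CPM against 151, 192, 159 and 148 CPM, with a log2 fold change of −0.21 ± 0.10 (SE; adjusted p by edgeR = 0.363). Acadvl, the very-long-chain enzyme, had the same fold change to 2 decimals, −0.21 ± 0.11 (SE; adjusted p by edgeR = 0.395), and Acads, the short-chain enzyme, differed by −0.24 ± 0.12 (SE; adjusted p by edgeR = 0.367). The long, very long and short chain enzymes thus had close estimates with overlapping errors. Acad10 read 15.7, 31.5, 31.4 and 31.7 CPM against 22.8, 26.8, 23.0 and 18.4 CPM, so that 3 CDH11+/+ libraries were nearly equal and replicate 1 lay below all 7 others. It was at −0.28 ± 0.22 (SE; adjusted p by edgeR = 0.614) with all libraries and at −0.46 ± 0.11 (SE; adjusted p by edgeR = 0.0353) without that one. With each library left out in turn, Acad10 ran from −0.46 to −0.18. The smaller estimates of the group were −0.15 ± 0.13 (SE) for Acad9, which also serves in the assembly of respiratory complex I, −0.13 ± 0.16 for Acad12 and −0.08 ± 0.09 for Acadsb, which acts on short branched chains; their edgeR adjusted p were 0.648, 0.758 and 0.712.

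The next steps, from hydration to thiolysis, held Acaa2, the gene closest to the threshold after Acsl1. All 7 had negative fold changes (median −0.23), and 2 had an unadjusted p under 0.05. Acaa2 (chr18:74779197-74806208), the thiolase that releases acetyl-CoA, read 77.0, 118, 91.9 and 109 CPM in the CDH11+/+ libraries and 77.4, 78.4, 73.8 and 65.1 CPM in the CDH11-/- libraries, means of 98.8 ± 18.1 and 73.7 ± 6.02 (SD, n = 4 each). The CDH11-/- values were tight, and of the CDH11+/+ values only replicate 1 reached down to them. The estimate was −0.42 ± 0.12 (SE; adjusted p by edgeR = 0.161, and 0.0104 to 0.368 over the 18 other fits) and −0.52 ± 0.09 (SE; adjusted p by edgeR = 0.0104) without that replicate.

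Decr1 (chr4:15917240-15945507), the dienoyl-CoA reductase needed for polyunsaturated chains, read 74.1, 106, 111 and 102 CPM against 75.0, 88.9, 73.0 and 66.7 CPM. The pattern over libraries was that of Acaa2, with a log2 fold change of −0.37 ± 0.13 (SE; adjusted p by edgeR = 0.233, and 0.00616 to 0.515 over the 18 other fits). Without CDH11+/+ replicate 1 it was −0.48 ± 0.09 (SE; adjusted p by edgeR = 0.0123). Hadh, the hydroxyacyl-CoA dehydrogenase for shorter chains, read 121, 212, 186 and 177 CPM against 142, 153, 141 and 118 CPM, at −0.33 ± 0.16 (SE; adjusted p by edgeR = 0.394) with all libraries and −0.46 ± 0.09 (SE; adjusted p by edgeR = 0.017) without that replicate. Echs1, the short-chain enoyl-CoA hydratase, was at −0.23 ± 0.11 (SE; adjusted p by edgeR = 0.367) and −0.31 ± 0.08 (SE; adjusted p by edgeR = 0.0344) in the same 2 fits. With each library left out in turn, Hadh ran from −0.46 to −0.22 and Echs1 from −0.31 to −0.16.

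The long-chain trifunctional protein differed less from 0. Its subunit genes Hadha and Hadhb were at −0.11 ± 0.09 and −0.13 ± 0.09 (SE), with edgeR adjusted p of 0.606 and 0.539, and neither passed the threshold without CDH11+/+ replicate 1. Eci1, an isomerase for unsaturated chains, was at −0.21 ± 0.10 (SE; adjusted p by edgeR = 0.39).

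The electron transfer flavoprotein accepts electrons from the dehydrogenases and hands them to its ubiquinone oxidoreductase. Etfb (chr7:43444083-43457800), its beta subunit, had the highest level per length of all the genes and read 174, 256, 270.3 and 233 CPM against 204, 244, 182 and 147 CPM. Its log2 fold change was −0.26 ± 0.18 (SE; adjusted p by edgeR = 0.551), or −0.14 without CDH11-/- replicate 4, and the alpha subunit Etfa was close to it at −0.23 ± 0.18 (SE; adjusted p by edgeR = 0.608). Etfdh, the oxidoreductase, had a similar estimate with less spread. It read 68.2, 93.3, 83.0 and 82.7 CPM against 66.2, 74.6, 68.9 and 60.6 CPM, and was at −0.28 ± 0.10 (SE; adjusted p by edgeR = 0.225) with all libraries and −0.34 ± 0.08 (SE; adjusted p by edgeR = 0.0291) without CDH11+/+ replicate 1. With each library left out in turn, Etfdh ran from −0.34 to −0.21.

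Acot2 is a mitochondrial thioesterase that frees fatty acids from coenzyme A, and Mlycd removes malonyl-CoA, the inhibitor of Cpt1a. Acot2 read 20.9, 24.8, 29.9 and 30.1 CPM against 21.8, 22.8, 21.7 and 18.0 CPM, at −0.33 ± 0.12 (SE; adjusted p by edgeR = 0.263) with all libraries and −0.41 ± 0.11 (SE; adjusted p by edgeR = 0.0447) without CDH11+/+ replicate 1. With each library left out in turn, Acot2 ran from −0.41 to −0.25. Its reads can be shared with the close paralog Acot1, so the split between these genes is uncertain. Mlycd was at −0.17 ± 0.16 (SE; adjusted p by edgeR = 0.683).

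Ketone bodies are oxidised by Bdh1, Oxct1 and Acat1 in turn. Oxct1 (chr15:4026383-4155344), the rate-limiting transferase of ketone use, read 368, 655, 636 and 519 CPM in the CDH11+/+ libraries and 436, 493, 408 and 372 CPM in the CDH11-/- libraries, means of 545 ± 132 and 427 ± 51.3 (SD, n = 4 each). CDH11+/+ replicate 1 was the lowest of all 8 and the other 3 were the highest. Its estimate was −0.35 ± 0.18 (SE; adjusted p by edgeR = 0.408, and 0.0244 to 0.733 over the 18 other fits) and −0.49 ± 0.10 (SE; adjusted p by edgeR = 0.0244) without that library.

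Bdh1, the hydroxybutyrate dehydrogenase, varied more between mice than any other of the 36 genes. It read 22.3, 62.7, 92.6 and 52.7 CPM against 38.0, 74.5, 42.0 and 32.0 CPM, a highest library 4.15 times the lowest, and a log2 fold change of −0.31 ± 0.46 (SE; adjusted p by edgeR = 0.813). Acat1, which also acts in the last step of isoleucine breakdown, was at −0.28 ± 0.27 (SE; adjusted p by edgeR = 0.701).

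Pdk4, a kinase that shuts off pyruvate entry when fat is burned, was the other tested gene above 0. It read 32.1, 24.8, 40.0 and 36.6 CPM against 30.0, 40.9, 39.2 and 33.3 CPM, a log2 fold change of 0.11 ± 0.15 (SE; adjusted p by edgeR = 0.793). Its groups overlapped throughout, and the sign turned without CDH11+/+ replicate 2 (−0.01).

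**Figure D3:**
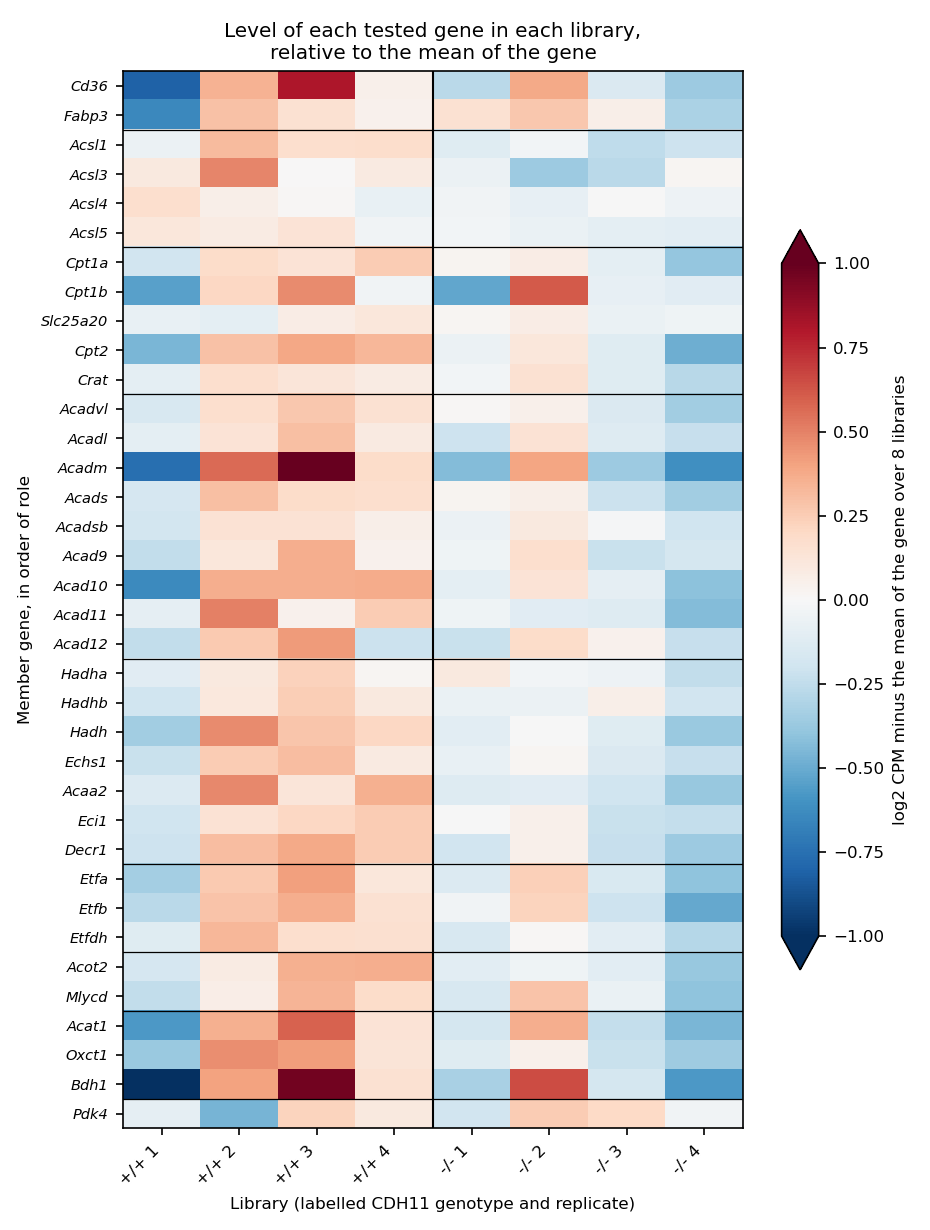
Level of each of the 36 tested genes (rows, by role) in each of the 8 libraries (columns), as log2 CPM minus the mean of the gene over the libraries. CDH11+/+ replicates 2 to 4 and CDH11-/- replicate 2 are above the mean for most genes, and CDH11+/+ replicate 1 and CDH11-/- replicate 4 are below it.

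Most of the genes were low and high in the same kidneys within each label. Averaged over the 36 genes, log2 CPM relative to each gene's own mean was −0.27, 0.24, 0.31 and 0.13 in CDH11+/+ replicates 1 to 4 and −0.11, 0.12, −0.12 and −0.30 in CDH11-/- replicates 1 to 4. The 2 lowest kidneys thus carried different labels, and the highest CDH11-/- kidney lay close to the CDH11+/+ replicate 4 value. CDH11-/- replicate 2 was the highest of its group for 30 of the 36 genes and replicate 4 the lowest for 29. In the CDH11+/+ group replicate 3 was the highest for 20. The 4 synthetases did not follow this, with a mean made the same way of 0.08 in CDH11+/+ replicate 1 and −0.13 in CDH11-/- replicate 2. The median coefficient of variation was 16.9% under CDH11+/+ and 12.3% under CDH11-/-, and it was larger under CDH11+/+ for 29 genes. The genes with the widest ranges over the 8 libraries were Bdh1 (4.15 times), Acadm (3.40 times), Cd36 (3.08 times) and Acat1 (2.24 times).

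Whole kidney mixes many cell types, and in such tissue fewer cells of a type and less RNA per cell cannot be told apart. The tissue carried its tubule markers in every library, with the 12 proximal tubule genes summing to 2002, 4398, 3066 and 3233 CPM in the CDH11+/+ libraries and 1909, 2254, 2025 and 1386 CPM in the CDH11-/- libraries. All 12 had negative fold changes (median −0.83), and 1 was called (0.725% of all genes). That was Slc13a3, a dicarboxylate transporter, at −1.51 ± 0.24 (SE), with an edgeR adjusted p of 0.0469. Of the 12 markers, 9 had an unadjusted p under 0.05 by edgeR (14.4% of all genes). Groups did not overlap for 6 of the markers (7.33% of all genes). Their mean relative level, −0.31, 1.09, 0.62 and 0.61 against −0.52, −0.10, −0.40 and −0.98, was low in CDH11+/+ replicate 1 and lowest in CDH11-/- replicate 4, as for the oxidation genes. The 5 thick ascending limb markers summed to 1843, 2953, 3242 and 2824 CPM against 2849.6, 3279, 2515 and 1784 CPM, and the 9 distal and collecting tubule markers to 1485, 2584, 2622 and 2274 CPM against 1917, 1821, 1593 and 1516 CPM. CDH11+/+ replicate 1 was the lowest of its group in all 3 segments.

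Markers of other cells mostly ran the opposite way. The 6 endothelial markers summed to 222 to 291 CPM under CDH11+/+ and 302 to 326 CPM under CDH11-/-, with 6 of 6 positive and a median of 0.32. The 6 fibroblast markers summed to 1032 to 1499 against 1209 to 1717 CPM and the 6 macrophage markers to 3076 to 4303 against 3541 to 4508 CPM. In both lists the highest CDH11+/+ library was replicate 1. The 5 injured tubule markers summed to 1235, 1217, 1205 and 1133 CPM in the CDH11+/+ libraries and 1030.4, 904, 1072 and 1109.7 CPM in the CDH11-/- libraries. These sums did not overlap and were lower under CDH11-/-. Within each label they were highest in CDH11+/+ replicate 1 and CDH11-/- replicate 4, the kidneys lowest for the oxidation genes in their labels. Of the 5 genes, 3 were negative and 2 were positive, with a median of −0.27, so the lower sum was not shared by all. Vcam1 had means of 523 CPM under CDH11+/+ and 380 CPM under CDH11-/- (edgeR adjusted p = 0.0759). Havcr1 had means of 382 and 389 CPM (edgeR adjusted p = 0.952). Besides Slc13a3, 0 of the genes in these lists passed the threshold. The part of the cell mix in the values of the oxidation genes was not tested.

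Cells from outside the kidney that burn fat were scarce. Each of the 6 striated muscle markers was under 1 CPM in every library (summed at most 1.06 CPM). Of the 6 adipocyte markers, Lep and Ucp1 were under 1 CPM everywhere, while Adipoq, Plin1 and Cfd reached 1.82, 2.42 and 14.9 CPM in CDH11-/- replicate 4 and were at or below 0.403 CPM in the other 7 libraries; the sum of the 6 ran from 46.8 to 66.0 CPM and from 51.5 to 103 CPM, of which Fabp4 alone gave 83.0 CPM in CDH11-/- replicate 4. The 4 adrenal markers summed to 1.75 to 4.34 CPM.

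**Figure D4:**
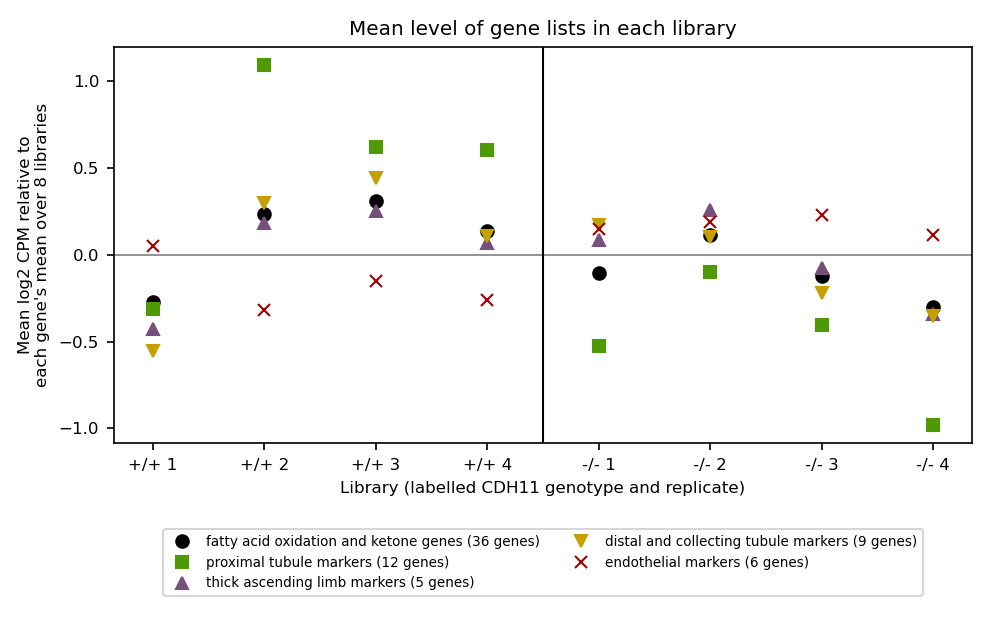
Mean log2 CPM after subtracting each gene's own mean, for the 36 tested oxidation and ketone genes and 4 lists of cell type markers, by library. The oxidation genes run from −0.30 to 0.31 and the proximal tubule markers from −0.98 to 1.09, both below 0 in CDH11+/+ replicate 1 and lowest in CDH11-/- replicate 4, while the endothelial markers are above 0 in all CDH11-/- libraries.

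Levels between genes can be compared only per length, here as RPKM, the CPM divided by the kilobases of annotated exon. As means of the 8 libraries, Etfb led at 184 RPKM, followed by Oxct1 at 131, Acadl at 87.4, Etfa at 73.7, Acadm at 67.7 and Fabp3 at 67.0. Under either label Oxct1 exceeded Acadl by more than its own SD, and the 8-library means of Etfa, Acadm, Fabp3 and Acadvl (64.0 RPKM) differed by less than the SD of Etfa. At the low end were Cpt1b at 5.58, Acad9 at 5.13, Acsl3 at 4.27, Acad10 at 4.15, Acad12 at 3.14 and Fabp1 at 2.57 RPKM. Dividing by the longest transcript moved 21 of the 37 levels by more than their SD, and Etfb and Oxct1 kept the first and second places. Exons of 15 of the 37 genes overlap those of another gene, and the counting may not separate these; for Etfb they are Gm45233 and Mir7051 on its own strand.

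**Figure D5:**
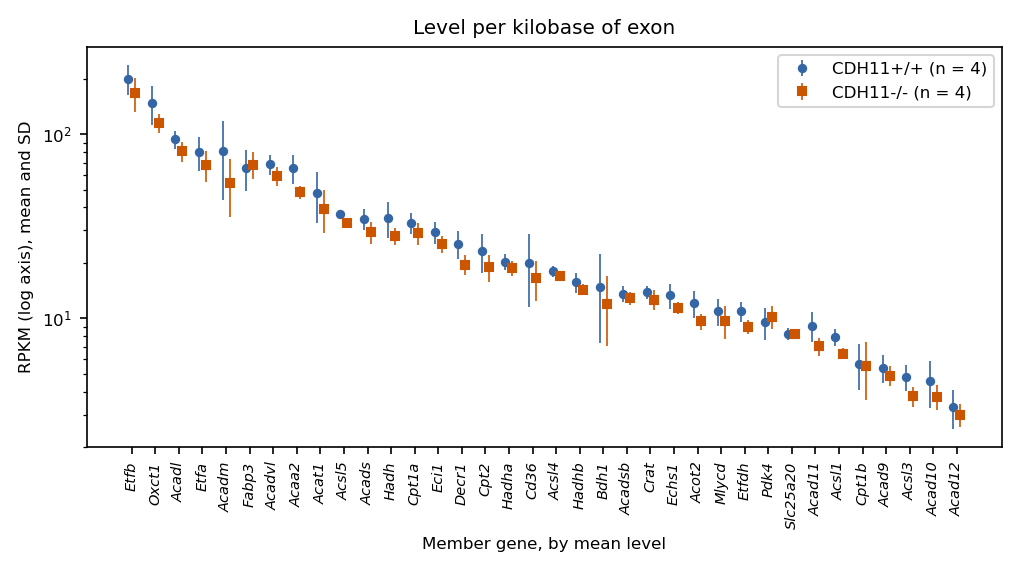
Level per kilobase of exon (RPKM, log axis) of the 36 tested genes, as mean and SD of 4 libraries for each label. Genes are in order of the mean over all 8. Etfb (184 RPKM) and Oxct1 (131 RPKM) lead and Acad12 (3.14 RPKM) is last. Fabp1 (2.57 RPKM), which was not tested, is not shown.

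Other genes of the pathway were counted in the same way. Of 30 other oxidation and ketone genes, all tested, 0 passed the threshold and the median was −0.19. Fold changes were negative for 23 (76.7%, against 52.4% of all tested genes). An unadjusted p under 0.05 by edgeR was found for 6, where the share of all tested genes was 14.4%. The 3 of smallest p were lower. Dbi, the acyl-CoA binding protein, read 264, 310.1, 303 and 312 CPM against 224, 265, 233 and 229 CPM (−0.32 ± 0.08, SE; edgeR adjusted p = 0.0822). Slc22a5, the carnitine importer, read 76.9, 119.8, 91.4 and 102 CPM against 63.3, 77.4, 69.1 and 57.9 CPM (−0.54 ± 0.14, SE; edgeR adjusted p = 0.115). Acot1, the cytosolic paralog of Acot2, was at −0.65 ± 0.17 (SE; adjusted p by edgeR = 0.136), with groups that did not overlap.

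Of the 16 regulators, 0 passed the threshold and 11 were negative (68.8%, against 52.4% of all tested genes), with a median of −0.09. An unadjusted p under 0.05 by edgeR was found for 7, against 14.4% of all tested genes. Ppara, which encodes PPAR alpha, had the smallest p among them. It read 18.0, 17.2, 16.0 and 18.5 CPM in the CDH11+/+ libraries and 8.86, 11.6, 14.3 and 9.62 CPM in the CDH11-/- libraries. These groups did not overlap, and CDH11+/+ replicate 1 lay within the range of its own group. The log2 fold change was −0.64 ± 0.14 (SE; adjusted p by edgeR = 0.0742, and 0.00882 to 0.221 over the 18 other fits), so it missed the threshold with all libraries. Esrrg is an estrogen-related receptor that drives mitochondrial genes, and Prkaa2 is a catalytic subunit of the energy sensor AMPK. They were at −0.37 ± 0.11 and −0.33 ± 0.10 (SE), with edgeR adjusted p of 0.159 and 0.179. Hnf4a and Rxra, also with an unadjusted p under 0.05 by edgeR, were at −0.51 ± 0.21 and −0.17 ± 0.07 (SE). Their edgeR adjusted p were 0.326 and 0.297. Ppard and Prkaa1 went the other way, at 0.21 ± 0.07 and 0.17 ± 0.07 (SE), with edgeR adjusted p of 0.233 and 0.293. The groups of Ppard did not overlap, at 27.2 to 30.8 CPM under CDH11+/+ and 31.7 to 36.1 CPM under CDH11-/-. Ppargc1a, the coactivator of mitochondrial biogenesis, was at 0.14 ± 0.11 (SE; adjusted p by edgeR = 0.621).

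Of 14 lipid genes known as PPAR targets, 10 were tested and 1 passed the threshold (0.725% of all tested genes). That was Cyp4a14, a fatty acid omega-hydroxylase of the endoplasmic reticulum, at 6.64, 12.8, 11.5 and 11.3 CPM against 1.75, 1.81, 1.85 and 2.05 CPM. It was lower by far more than the spread in either group, with a log2 fold change of −2.51 ± 0.22 (SE; adjusted p by edgeR = 0.000501, and 8.5e-20 to 0.00599 over the 18 other fits). It lies in a family of near-identical paralogs, so its counts are uncertain. Vnn1, a pantetheinase and the next by p, was at −0.81 ± 0.20 (SE; adjusted p by edgeR = 0.105). The list was not uniform, with 6 of the 10 negative (60.0%, against 52.4% of all tested genes) and 4 positive. Its median was −0.32, and fold changes ran from −2.51 to 0.26 on the log2 scale. An unadjusted p under 0.05 by edgeR was found for 4 of the 10, against 14.4% of all tested genes. Groups did not overlap for 2 of the 10 (7.33% of all tested genes). Ucp2 was higher, at 417, 334, 403 and 426 CPM against 459, 461, 443 and 462 CPM. Its groups did not overlap, and its log2 fold change was 0.21 ± 0.08 (SE), with an edgeR adjusted p of 0.261. Angptl4 was at −0.17 ± 0.17 and Plin2, the lipid droplet coat protein, at 0.04 ± 0.11 (SE), with edgeR adjusted p of 0.708 and 0.898.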

How the data were processed

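RNA of 8 mouse kidneys was compared by labelled genotype; labels give no litter, batch or replicate number, so numbers follow the order of deposit, and no label says how the libraries relate beyond being separate samples. The authors deposited whole-number counts per Ensembl gene and a second table of normalized values, a signal equal to the count over a factor that is not the same for all genes of a library. Of these factors, over 14733 genes whose lowest count was 10 or more, 33.1% lay within 1% of their library's median. Build mm10, DRAGEN and DESeq2 are named, per the submitters' processing notes, in versions not given in the sources used here; whether counting used strand is not given either. There were 0 columns of other samples.

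Names, coordinates and exon lengths came from GENCODE M21 (GRCm38, the assembly of mm10), which named 42170 of 42256 identifiers; the other 86 held 0.0484% to 0.0580% of counts. Mmut was matched by an older symbol. The test was edgeR 4.0.16 (R 4.3.3), quasi-likelihood with robust moderation, TMM and filterByExpr, genotype as the only term, Benjamini-Hochberg adjustment over 15852 genes at 0.05. The common biological coefficient of variation was 13.5%. A prior count of 2 entered relative log2 CPM only. Libraries of a group differed beyond sampling noise (mean chi-square per gene 7.67 to 32.3 between pairs), and each was treated as 1 sample. Such differences do not show that the libraries came from separate mice, which is assumed here. The p-values set the difference between labels against the spread between these samples. The fit was tested on simulated data.

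The 37 genes and all lists were chosen with earlier results of these data known. Values in every library are given for genes that pass the threshold and the gene of smallest p and of highest RPKM in each role. They are also given for the 6 largest fold changes and genes called in at least 2 other fits of all 8 libraries. Fabp1, Slc25a20, Cpt2, Acad10, Hadh and Bdh1 were added after their values were seen. Ppard, Prkaa1, Ppargc1a, Hnf4a, Rxra, Ucp2, Angptl4, Plin2, Vcam1 and Havcr1 were also named after their values were seen. Of other lists the 3 of smallest p are named, apart from 1 gene that is not reported here. The 18 alternatives were other scalings and filters (1 CPM in 4 libraries), DESeq2 1.42.0, limma-voom and limma 3.58.1 on log2 of the normalized values plus a pseudocount of 1, the authors' factors as offsets, no robust moderation, 1 surrogate variable (sva 3.50.0) and leaving out each library.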

Additional observations from a re-analysis of the deposited data

Results flagged for a closer look

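Each of the 37 genes was checked for a library far from the other 3 of its label, 74 groups of 4 in all. 4 groups held such a library; chance alone gives about 1 in 20. In CDH11+/+ replicate 1, Cpt2 was at 35.9 CPM where the other 3 libraries were at 60.2 to 64.3 CPM, Acad10 was at 15.7 CPM where they were at 31.4 to 31.7 CPM, and Fabp1 was at 1.20 CPM where they were at 0.386 to 0.456 CPM. In CDH11-/- replicate 2, Fabp1 was at 7.95 CPM, on 123 counts, and the other 3 libraries were at 0 to 0.845 CPM. Fabp1 rests on few counts in the other 7 libraries.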

How the results depend on the processing

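With all 8 libraries, 0 of 36 genes were called under every scaling and filter tried, DESeq2, limma on the authors' values and the authors' offsets; 1 surrogate variable gave 4 lower and limma-voom 3. Leaving out 1 library gave 0 to 10 lower, 10 without CDH11+/+ replicate 1 and 0 without any other; the cause was not tested. edgeR without robust moderation also called 0. The median stayed negative throughout, from −0.32 without that library to −0.13 with 1 surrogate variable, and 30 to 35 genes were negative. Leaving out 1 library moved the estimate by over 1.5 times for 25 of 36 genes at least once (19 of them without CDH11-/- replicate 4, 15 without CDH11+/+ replicate 3, 14 without CDH11+/+ replicate 1 and 13 without CDH11-/- replicate 2), and a fit of all 8 libraries did so for 23. Signs turned for 6 genes with estimates near 0 or wide errors. Cpt1b was at 0.14 with 1 surrogate variable, 0.17 with the authors' offsets, 0.00653 with library size alone and 0.16 with limma on the authors' values, and at −0.30 to 0.12 with 1 library left out. Slc25a20 was at 0.00674, 0.00499, 0.0384 and 0.00787 in the same order, 0.00445 with no filter, and −0.0456 to 0.0269 with 1 library left out. Bdh1 was at 0.0628 with 1 surrogate variable and at −0.63 to 0.0172 with 1 library left out. On leaving out 1 library, Fabp3 ran from −0.10 to 0.17, Acad12 from −0.22 to 0.00129 and Pdk4 from −0.0147 to 0.20.

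Over all genes, 115 were called, against 724 with 1 surrogate variable, 679 by limma-voom, 515 by DESeq2, 65 with the authors' offsets, 54 by limma on their values, 993 without CDH11+/+ replicate 1, and 27 to 86 without any other library. No paired analysis was possible because the labels carry no replicate numbers.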
